A study of Mus musculus with 18 samples.

Results

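A set of 8 prostanoid receptors of the mouse was followed across white and brown fat. Ptger1, Ptger2, Ptger3 and Ptger4 bind prostaglandin E2, Ptgir prostacyclin, Ptgfr prostaglandin F2alpha, Ptgdr prostaglandin D2 and Tbxa2r thromboxane. Gpr44, the second prostaglandin D2 receptor, was not in the set. The members were taken by gene symbol, and all 8 were among the 45151 symbols listed in all 18 RNA-seq files. The samples came from 16-week-old wild type C57BL/6J males (strain label C57BL/6) on regular chow, with no further treatment or transgene in any group. 6 libraries were made from inguinal white adipose tissue (iWAT) adipocytes, 6 from epididymal white adipose tissue (eWAT) adipocytes and 6 from brown adipose tissue (BAT). The iWAT and eWAT cells were the floating layer after collagenase digestion, whereas BAT was whole frozen tissue, so depot and preparation cannot be told apart in any comparison with BAT. The sequencing was done to find which G protein-coupled receptors adipocytes carry of their own, with those coupled to Gs in view.

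Prostanoids are short-lived lipids made from arachidonic acid by the cyclooxygenases and a set of terminal synthases, and they act close to where they are made. Each receptor couples mainly to 1 kind of G protein: Ptger2, Ptger4, Ptgir and Ptgdr to Gs, which raises cAMP, Ptger3 to Gi, which lowers it, and Ptger1, Ptgfr and Tbxa2r to Gq or calcium. In adipocytes cAMP drives lipolysis, and the Gi-coupled Ptger3 is known as a brake on it. Ptgfr is known from cultured preadipocytes as a receptor whose ligand holds back differentiation.

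Each library held 22929576 to 34512470 reads behind its RPKM values (reads scaled to the row length and to the depth of the library). The iWAT and BAT files list rows merged by gene, while the eWAT files list single transcripts, of which the one with the most reads was used, so the kind of row also follows the depot. The summed RPKM of 5 brown adipocyte markers (Ucp1, Cidea, Dio2, Elovl3, Cpt1b) was 1888 to 2491 in BAT, 20.0 to 31.4 in iWAT and 2.14 to 5.00 in eWAT, as the labels say. The eWAT sample of mouse 15 stood apart in 5 macrophage markers (Emr1, Cd68, Csf1r, Mrc1, Itgam), with a summed RPKM of 522.6 against 34.3 to 99.6 in the other eWAT samples. It also led in 5 platelet markers (51.0 against 4.17 to 13.3) and had the lowest sum of 5 adipocyte markers (2861 against 4344 to 6332). The BAT sample of mouse 12 stood apart in skeletal muscle markers (1340 RPKM summed over Acta1, Ckm, Myh4, Tnnt3 and Mylpf, with a BAT median of 26.2). The eWAT samples of mice 14 and 15 stood apart in epididymis markers (76.4 and 69.9 over Lcn5, Lcn8, Crisp1, Adam7 and Rnase10, against 0.0423 to 3.62 in the other eWAT samples). None of the macrophage or endothelial markers was at 0 in any depot. Early genes such as Fos and Egr1 summed to 1571 to 3070 RPKM in the digested white samples and 16.4 to 60.2 in BAT. In bulk libraries, fewer cells of a type and less RNA per cell cannot be told apart.

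Per length, the mean levels of Ptger3 and Ptger1 led in every depot. In eWAT the lead of Ptger1 (5.67 RPKM) over Ptger4 (5.51) was small, with Ptger1 higher in 4 of 6 samples. The mean RPKM reached 1 for 4 members in iWAT (Ptger3, Ptger1, Ptgfr, Ptger4), 5 in eWAT (the same and Ptgir) and 2 in BAT (Ptger1 and Ptger3). In iWAT the ranges over the 6 samples kept apart down the order Ptger3, Ptger1, Ptgfr, except that Ptgfr overlapped with Ptger4 below it, and Ptger2 overlapped with Tbxa2r further down. In eWAT the ranges of neighbours overlapped for Ptger3, Ptger1 and Ptger4 at the top and again for Ptgfr, Ptgir, Ptger2 and Tbxa2r. In BAT Ptger1 exceeded Ptger3 in 6 of 6 samples although their ranges overlapped, and all others were below 2 RPKM in every sample.

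**Figure D1:**
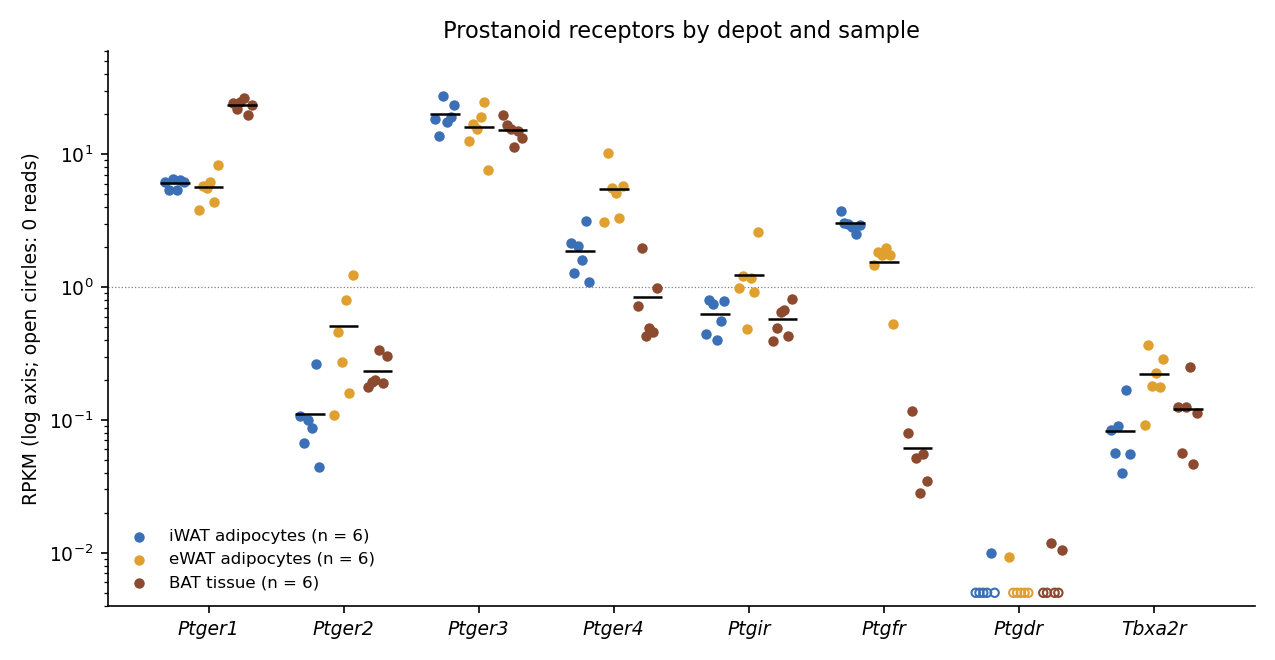
RPKM of each receptor (log axis) in each of the 6 iWAT, 6 eWAT and 6 BAT samples, with a bar at the group mean and open circles for samples with 0 reads. Ptger1 stands higher in all 6 BAT samples (19.8 to 26.3) than in any white sample (3.81 to 8.34), Ptgfr lies lower in BAT (0.0282 to 0.116) than in any white sample (0.525 to 3.75), and Ptger3 overlaps across the 3 depots.

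Ptger1, the prostaglandin E2 receptor that raises calcium, had the highest level in BAT. In iWAT its RPKM ran from 5.38 over a median of 6.20 to 6.55, in eWAT from 3.81 over 5.64 to 8.34, and in BAT from 19.8 over 23.9 to 26.3. No white sample reached the lowest BAT sample. The log2 fold change was -2.23 ± 0.09 (SE) for iWAT against BAT (edgeR quasi-likelihood test with Benjamini-Hochberg adjustment over all rows, adjusted p = 9.44e-11) and -2.57 ± 0.15 for eWAT against BAT (edgeR, adjusted p = 3.26e-11), a 4.68-fold and a 5.94-fold higher level in BAT. These contrasts share the BAT samples. Between iWAT and eWAT the log2 fold change was 0.29, with a 95% interval of 0.01 to 0.58 (edgeR, adjusted p = 0.144), and without the eWAT sample of mouse 15 it was 0.45 (edgeR, adjusted p = 0.0058). All of these values are on read counts, and the eWAT transcript is shorter than the merged row. With row length as an offset, iWAT against eWAT was at 0.10 (edgeR, adjusted p = 0.595). By the same offset, eWAT against BAT was at -2.38 (edgeR, adjusted p = 4.86e-11).

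The Ptger1 row needs care, since part of it lies in exons annotated on the opposite strand, and no strand-specific kit is named for these libraries. The merged row spans chr8:86190539-86196652 on the plus strand (mm9) with 2 exons and 5152 bases, of which 1408 lie in such exons. Reads from the opposite strand cannot be told apart from those of Ptger1 there, so its levels and differences are uncertain. A further row of that name, on the minus strand, was not used. The eWAT files also list the RefSeq transcript NM_013641, of which 342 bases lie in such exons, and it held 223 to 588 reads per sample at 5.24 ± 1.84 RPKM (SD, n = 6).

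Ptgfr, the receptor of prostaglandin F2alpha, showed the opposite pattern and the largest differences from BAT of the members tested. Its RPKM ran from 2.50 over a median of 2.95 to 3.75 in iWAT, from 0.525 over 1.73 to 1.97 in eWAT, and from 0.0282 over 0.0536 to 0.116 in BAT. The reads behind these values were 400 to 555 per iWAT sample, 76 to 275 per eWAT sample and 5 to 23 per BAT sample. The 3 depots did not overlap with each other. Against BAT, Ptgfr was 39.8-fold higher in iWAT (log2 fold change 5.32 ± 0.25, edgeR, adjusted p = 4.3e-10) and 14.8-fold higher in eWAT (3.89 ± 0.32, edgeR, adjusted p = 3.86e-09). On read counts the iWAT level was 2.61 times that of eWAT (1.38 ± 0.26, edgeR, adjusted p = 0.000877), but the eWAT transcript is shorter than the merged row. With row length as an offset the log2 fold change was 0.99 for iWAT against eWAT (edgeR, adjusted p = 0.00326). For eWAT against BAT it was then 4.28 (edgeR, adjusted p = 6.51e-10). With the eWAT transcript of highest RPKM in place of the most-read one, the log2 fold changes of eWAT against BAT and of iWAT against eWAT were 3.22 and 2.09. The lowest eWAT value came from mouse 15, and without that sample the lowest was 1.47. The row spans chr3:151460445-151500594 on the minus strand (mm9) and shares no bases with exons of other genes.

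Ptger3, the Gi-coupled receptor, had the highest mean RPKM of the members in both white depots. Its RPKM ran from 13.6 over a median of 18.6 to 27.5 in iWAT, from 7.63 over 16.1 to 24.5 in eWAT, and from 11.3 over 15.2 to 19.8 in BAT, so all 3 ranges overlapped. Against BAT the log2 fold change in iWAT was 0.10, with a 95% interval of -0.23 to 0.43 (edgeR, adjusted p = 0.604). In eWAT it was -0.60 ± 0.22 on read counts (edgeR, adjusted p = 0.0201), but the eWAT transcript is shorter than the merged row, and the mean RPKM was 16.0 ± 5.72 in eWAT (SD, n = 6) and 15.2 ± 2.89 in BAT. On log2(RPKM + 0.1) the difference was 0.00 (limma, adjusted p = 0.987). With mice entered as a block the eWAT value against BAT was -0.49 (edgeR, adjusted p = 0.0867), and without the eWAT sample of mouse 7 it was -0.51 (edgeR, adjusted p = 0.0585). For iWAT against eWAT it was 0.65 ± 0.22 (edgeR, adjusted p = 0.0348), with 0.67 under the block (edgeR, adjusted p = 0.0575) and 0.33 with row length as an offset (edgeR, adjusted p = 0.22). Leaving out iWAT of mouse 12 or 15, or eWAT of mouse 7, 8, 11 or 15, also ended that call, at 0.51 to 0.66. Ptger3 spans chr3:157229856-157307722 on the plus strand (mm9).

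The promoters of Ptgfr and Ptger3 are shown because Ptgfr differed most from BAT among the members tested, while the ranges of Ptger3 overlapped across the depots. The sequences are RefSeq windows of 300 bases around the annotated start, given 5′ to 3′ on the gene's strand, from GRCm38.p6: chr3:151837479-151837778 on the minus strand for Ptgfr and chr3:157566626-157566925 on the plus strand for Ptger3. Capitals mark the GC box GGGCGG, on either strand.
Ptgfr: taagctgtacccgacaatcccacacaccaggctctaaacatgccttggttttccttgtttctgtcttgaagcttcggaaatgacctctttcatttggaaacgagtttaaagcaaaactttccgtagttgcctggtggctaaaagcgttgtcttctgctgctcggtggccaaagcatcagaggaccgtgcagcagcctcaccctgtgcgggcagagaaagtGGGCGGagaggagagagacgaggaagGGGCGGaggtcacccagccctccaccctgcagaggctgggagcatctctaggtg
Ptger3: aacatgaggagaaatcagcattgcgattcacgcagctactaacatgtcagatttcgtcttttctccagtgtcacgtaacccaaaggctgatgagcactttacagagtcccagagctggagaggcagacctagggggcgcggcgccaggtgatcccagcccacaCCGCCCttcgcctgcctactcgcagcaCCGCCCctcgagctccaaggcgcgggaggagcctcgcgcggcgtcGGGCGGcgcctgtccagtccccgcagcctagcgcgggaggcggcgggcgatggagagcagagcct
Ptgfr held 2 GC boxes, 11 CpG and 54.3% GC, and Ptger3 held 3 GC boxes, 27 CpG and 64.0% GC. Over 32851 promoters of the same length, 35.7% held a GC box on either strand, with a median of 7 CpG (quartiles 3 to 20) and a median GC content of 52.7%. The TATA box letters TATAAA were searched on both strands as well and were in neither window, against 13.6% of all promoters. The same held for the CCAAT box (letters CCAAT, 37.4%) and for the cAMP response element (letters TGACGTCA, 1.79%).

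Ptger4, a Gs-coupled receptor of prostaglandin E2, had its highest RPKM in eWAT, where the row is shorter and the difference from iWAT was not called on reads. In iWAT its RPKM ran from 1.09 over a median of 1.82 to 3.12 (187 to 658 reads), in eWAT from 3.08 over 5.34 to 10.2 (290 to 1154 reads), and in BAT from 0.428 over 0.606 to 1.95 (76 to 444 reads). The eWAT samples all lay above the BAT samples, and iWAT overlapped with both. On read counts Ptger4 exceeded BAT in eWAT (log2 fold change 1.37 ± 0.38, edgeR, adjusted p = 0.00331, and 2.38 with row length as an offset) and in iWAT (0.90 ± 0.37, edgeR, adjusted p = 0.0419). The iWAT call was lost in 8 of 12 fits that left out 1 sample (iWAT of mouse 7, 12 or 14 and BAT of mouse 6, 8, 11, 12 or 13), at 0.71 to 0.92 with edgeR adjusted p-values of 0.0593 to 0.102. It was also lost in the fit over symbols with all 18 samples, on which the comparisons with eWAT rest (0.85, edgeR, adjusted p = 0.0531), and when rows had to reach an average RPKM of 1 in iWAT or BAT (0.83, edgeR, adjusted p = 0.0623).

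In eWAT and iWAT, but not in BAT, the sample with the highest Ptger4 level was also the one with the highest sums of endothelial and of mural markers. The eWAT sample of mouse 8 had the highest Ptger4 RPKM (10.2) and also the highest sum of 5 endothelial markers (Pecam1, Cdh5, Kdr, Tek, Emcn; 203.5 against 77.7 to 136.2 in the other eWAT samples). In iWAT the sample of mouse 14 led in Ptger4 (3.12) and in the endothelial sum (135 against 23.2 to 68.7). The sum of 5 smooth muscle and mural markers was highest in the same samples, at 182.5 in eWAT of mouse 8 (others 96.1 to 170.6) and 105.1 in iWAT of mouse 14 (others 19.3 to 66.0). That iWAT sample also had the highest sum of 5 fibroblast and progenitor markers (749.1 against 468 to 745.4). In BAT the sample of mouse 7 led in Ptger4 (1.95) with an endothelial sum of 61.4, inside the range of 43.1 to 80.6. The part of RNA from these cell types in the Ptger4 values was not tested.

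The rows behind Ptger4 differ between depots. The merged row of iWAT and BAT spans chr15:5156661-5194187 on the minus strand (mm9) with 6648 bases and 5 exons, of which 1097 bases lie in exons of Ttc33 or Gm15937 on the other strand. The eWAT transcript spans chr15:5183399-5194172 with 3312 bases and shares none. The RPKM of eWAT is therefore divided by a shorter length than that of the other depots. On read counts the difference between iWAT and eWAT was -0.52, with a 95% interval of -1.24 to 0.20 (edgeR, adjusted p = 0.325), and with row length as an offset it was -1.52 (edgeR, adjusted p = 0.00198). Which of these holds for the receptor itself cannot be told apart from the files.

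Ptgir, the Gs-coupled prostacyclin receptor, had the same row in all 18 files (chr7:17491839-17496254, plus strand, mm9, 3334 bases). Its RPKM ran from 0.397 over a median of 0.652 to 0.797 in iWAT, from 0.487 over 1.08 to 2.61 in eWAT and from 0.391 over 0.571 to 0.819 in BAT. The eWAT range reached above the others but overlapped with both. The log2 fold change was 0.79 ± 0.32 for eWAT against BAT (edgeR, adjusted p = 0.0327) and -0.98 ± 0.32 for iWAT against eWAT (edgeR, adjusted p = 0.0289). For iWAT against BAT it was -0.14, with a 95% interval of -0.58 to 0.29 (edgeR, adjusted p = 0.58). The highest eWAT value was that of mouse 15, and without it the eWAT differences were 0.41 against BAT (edgeR, adjusted p = 0.152) and -0.60 for iWAT against eWAT (edgeR, adjusted p = 0.0943). Entered as a block, the mouse number left them at 0.43 (edgeR, adjusted p = 0.278) and -0.80 (edgeR, adjusted p = 0.105). The first call was also lost without BAT of mouse 6, 7, 11 or 12, at 0.69 to 0.79, and the second without iWAT of mouse 7 or 13, at -0.91 and -0.88.

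Ptger2, the second Gs-coupled receptor of prostaglandin E2, was close to its floor of 3 reads (0.0177 to 0.0248 RPKM) in iWAT. Its RPKM ran from 0.0440 over a median of 0.0932 to 0.263 in iWAT (6 to 44 reads), from 0.110 over 0.367 to 1.24 in eWAT (14 to 153 reads) and from 0.176 over 0.196 to 0.335 in BAT (28 to 54 reads). All iWAT samples other than that of mouse 14 were below the BAT samples, and the eWAT samples reached from below to above the BAT range. The iWAT level of Ptger2 was below that of BAT (log2 fold change -1.28 ± 0.35, edgeR, adjusted p = 0.00502), and without the iWAT sample of mouse 14 the value was -1.75 (edgeR, adjusted p = 4.46e-05). It was lower in iWAT than in eWAT by the main test (-1.66 ± 0.52, edgeR, adjusted p = 0.0236) but not with the mouse number as a block (-1.38, edgeR, adjusted p = 0.162). Leaving out iWAT of mouse 11 or 15, or eWAT of mouse 13 or 15, ended that call as well, at -1.56 to -1.14. For eWAT against BAT the value was 0.33, with a 95% interval of -0.62 to 1.29 (edgeR, adjusted p = 0.554).

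The eWAT samples with the most Ptger2 were those with the highest macrophage marker sums: mouse 15 (1.24 RPKM; macrophage sum 522.6), mouse 13 (0.800; 99.6) and mouse 8 (0.460; 52.5). The remaining 3 eWAT samples had 0.110 to 0.275 RPKM of Ptger2 and macrophage sums of 34.3 to 40.6. Ptgir in the same order was at 2.61, 1.17 and 1.22, against 0.487 to 0.983 in the remaining 3. In iWAT the macrophage sum was highest in mouse 7 (44.9), where Ptger2 was at 0.107 and Ptgir at 0.445, inside the range of the other samples. The iWAT sample with the most Ptger2, mouse 14 (0.263), had a macrophage sum of 7.49 and the highest endothelial (135) and mural (105.1) sums. In eWAT, mice 8 and 13 had the highest endothelial (203.5 and 136.2) and mural sums (182.5 and 170.6). Mouse 15 had the lowest endothelial sum of eWAT (77.7) and a mural sum of 131.1. The part of RNA from macrophages, endothelial or mural cells in the Ptger2 and Ptgir values was not tested. Nor was that of the other markers by which mouse 15 stood apart.

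Tbxa2r, the thromboxane receptor, was counted by few reads. It had 2 to 11 reads per iWAT sample, 6 to 24 per eWAT sample and 3 to 16 per BAT sample, with a mean RPKM of 0.0820 ± 0.0455 (SD, n = 6), 0.221 ± 0.0958 and 0.120 ± 0.0735. It did not reach the read minimum for the test of iWAT against BAT, and an exact permutation test on RPKM (two-sided, 6 against 6 samples) gave p = 0.342, where the smallest possible is 0.00216. For eWAT against BAT the log2 fold change was 0.45, with a 95% interval of -0.33 to 1.23 (edgeR, adjusted p = 0.317). For iWAT against eWAT it was -1.24 ± 0.42 (edgeR, adjusted p = 0.0353), and -1.03 with the mouse number as a block (edgeR, adjusted p = 0.155). Only 12 of the fits that left out 1 sample tested Tbxa2r, and 5 of them lost this call. These were the fits without iWAT of mouse 7, 11, 12, 13 or 15, at -1.25 to -1.11. Without eWAT of mouse 8, 11, 13 or 15, iWAT of mouse 14 or BAT of mouse 11, Tbxa2r fell below the read minimum and was not tested.

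Ptgdr, the prostaglandin D2 receptor, was not detectable at this depth. The reads of all 6 libraries of a depot came to 1 for iWAT, 1 for eWAT and 2 for BAT. A count of 0 in a sample allows up to 3 reads, which is an RPKM of 0.0273 to 0.0411 for this row (counting error only). Its row (chr14:45470910-45479050, minus strand, mm9) also overlaps with the gene Gm16976.

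By the threshold of an adjusted p under 0.05 (edgeR), 4 of the 6 members tested were called between iWAT and BAT, with Ptgfr and Ptger4 higher in iWAT and Ptger1 and Ptger2 higher in BAT. Of all rows tested, 67.6% were called in that comparison, with 34.0% higher in iWAT and 33.6% higher in BAT, so the members' count is near the background. Between eWAT and BAT 5 of 7 were called (Ptgfr, Ptger4 and Ptgir higher in eWAT, Ptger1 and Ptger3 higher in BAT) against 70.3% of all symbols (35.6% higher in eWAT, 34.7% higher in BAT). Between iWAT and eWAT 5 of 7 were called (Ptgfr and Ptger3 higher in iWAT, Ptger2, Ptgir and Tbxa2r higher in eWAT) against 25.6% of all symbols (13.4% higher in iWAT, 12.3% higher in eWAT). Under the mouse block the members called were 4, 3 and 1 in these comparisons, against 59.3, 62.0 and 17.2% of all features tested, and the 1 was Ptgfr. The RPKM ranges of the 6 samples did not overlap for 2 members between iWAT and BAT (48.4% of all symbols), 3 between eWAT and BAT (61.8% of all symbols) and 1 between iWAT and eWAT (32.3%).

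**Figure D2:**
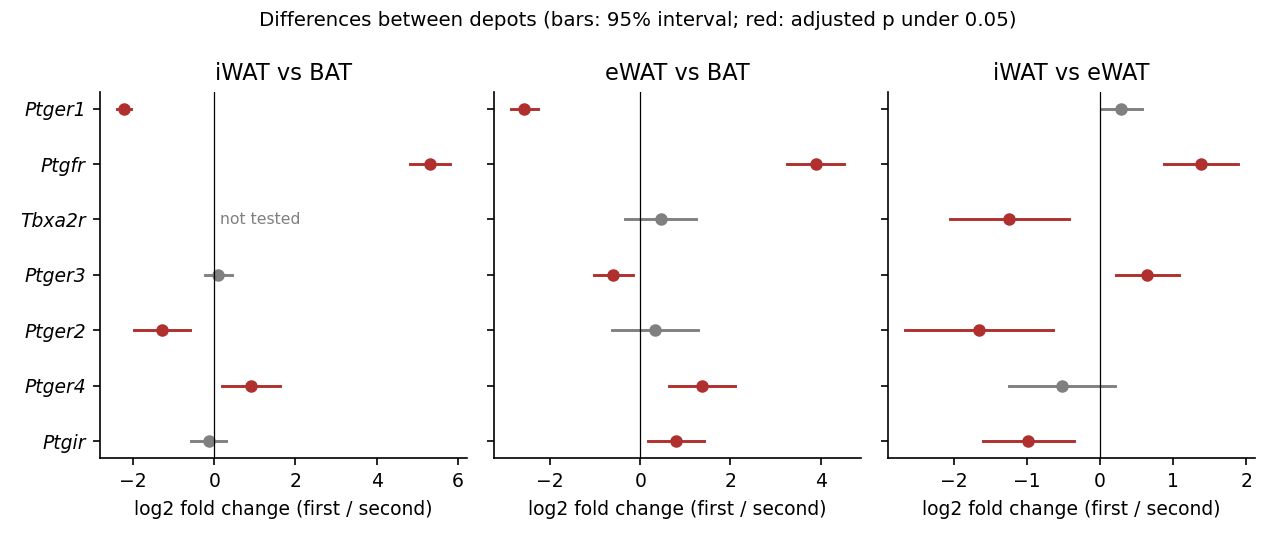
Log2 fold change of each receptor in the 3 comparisons (first depot over second; positive is higher in the first), with 95% intervals as bars and calls at an adjusted p under 0.05 in red. Ptgfr lies at 5.32, 3.89 and 1.38 and Ptger1 at -2.23, -2.57 and 0.29, while the intervals of Ptger2, Ptger4 and Tbxa2r are wider, and Ptgdr, which was not tested, is left out.

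Grouped by coupling, the receptor transcripts had a different make-up in each depot. Of the summed RPKM of the 8 members, the Gi-coupled Ptger3 took 62.3 ± 5.12% in iWAT (SD, n = 6), 51.5 ± 13.6% in eWAT and 37.5 ± 5.42% in BAT. The Gs-coupled members took 8.36 ± 2.29%, 23.8 ± 8.98% and 4.09 ± 1.49%, most of it from Ptger4 and Ptgir. Receptors coupled to Gq or calcium took 29.3 ± 3.96%, 24.7 ± 5.61% and 58.4 ± 5.39%.

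The Gs share was lowest on average in BAT, at 2.82 to 6.41% over the samples, a range that overlapped with iWAT (5.57 to 12.4%). In eWAT it was 12.4 to 36.4%, with mouse 15 highest and mouse 14 lowest. In the eWAT sample of mouse 15 the Gs, Gi and Gq shares were 36.4, 28.9 and 34.7%. The Gq share of BAT rested on Ptger1. Without Ptger1, whose row is uncertain, the shares of Gs, Gi and Gq were 10.4, 77.1 and 12.5% for iWAT, 30.1, 62.9 and 7.03% for eWAT and 9.82, 89.1 and 1.11% for BAT. The Gs share then ran from 6.06 to 13.6% in BAT and from 6.79 to 15.4% in iWAT, so these depots were alike in it. These are shares of transcripts, and they take the 2 kinds of rows as they are.

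**Figure D3:**
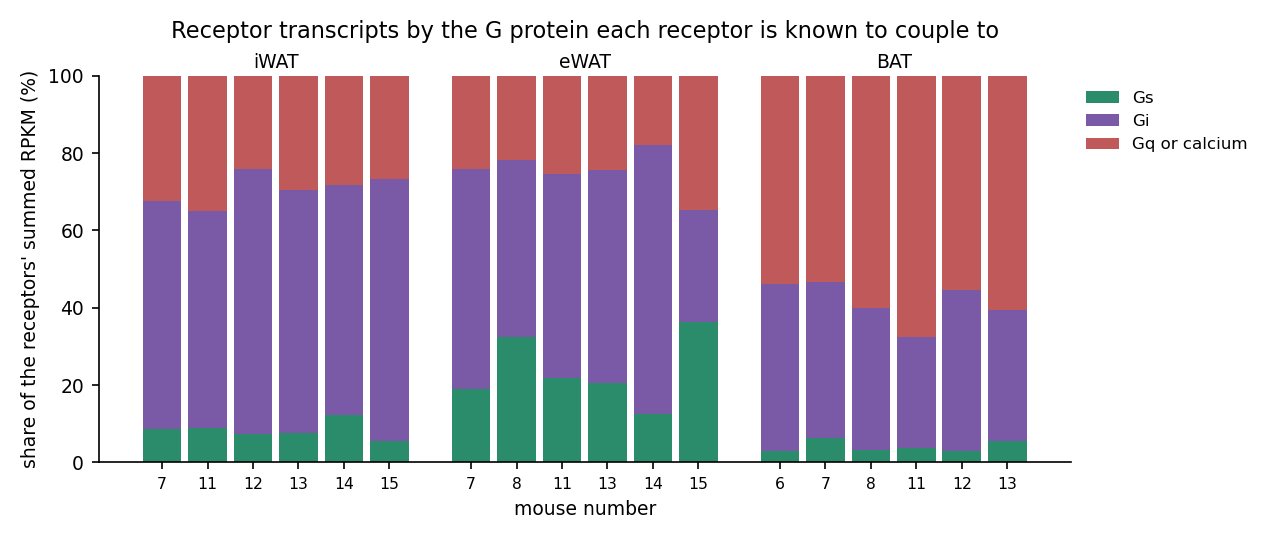
Share of the receptors' summed RPKM (percent, vertical) on members coupled to Gs, to Gi and to Gq or calcium, 1 bar per sample, grouped by depot. The Gq share is 53.3 to 67.5% in the BAT samples and 17.8 to 35.1% in the white samples, and the Gs share is highest in eWAT.

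For the members whose mean RPKM reached 1 in iWAT or BAT, the genes with the most similar profile over the 12 iWAT and BAT samples were looked up among 11856 genes. Likeness was the root mean square difference of log2(RPKM + 0.1) after each gene's own mean was subtracted. The measure includes the difference between iWAT and BAT, so genes with a similar ratio of the depots lie close by it. Likeness within a depot was not tested. Next to Ptger1 stood the mitochondrial enzyme gene Fh1 (0.113), Uqcrfs1 of respiratory complex III (0.124) and the thioesterase gene Acot13 (0.125), where the median of all genes was 1.17. Next to Ptgfr stood Gsn, encoding the actin-severing gelsolin (0.190), Chrna5 (0.235) and Cited2 (0.236), with a median of 2.00. Ptger3 was closest to Phlda3 (0.114), 2010003K11Rik (0.149) and F8a (0.179), with a median of 0.454. Ptger4 had no neighbour as near, with Ift27 (0.450), Ets2 (0.450) and Entpd6 (0.461) against a median of 0.805.

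The genes that make and clear the ligands were counted from 5 lists of the pathway. Of 35 listed genes 30 were tested. Against BAT, 15 were higher and 8 lower in iWAT, and 17 higher and 6 lower in eWAT (edgeR, adjusted p under 0.05). The 23 called in each are near the background of 67.6% and 70.3% of all features, and these comparisons share the BAT samples. In iWAT against eWAT, 5 were higher and 9 lower (25.6% of all symbols were called), of which 2 (Zadh2 and Ppard, both higher in iWAT on reads) had a lower mean RPKM in iWAT, on rows of other length.

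Of the genes that release arachidonic acid, 6 of 8 tested were higher and 1 lower in iWAT than in BAT. The median log2 fold change was 1.02 (0.01 over all rows). In eWAT against BAT 7 were higher and 1 lower, with a median of 1.2 (0.03 over all symbols). Over all features, 34.0% were higher and 33.6% lower in iWAT than in BAT, and 35.6% and 34.7% in eWAT. Pla2g16, the main adipocyte phospholipase, was at 85.2 to 116.6 RPKM in iWAT, 92.7 to 188.3 in eWAT and 23.2 to 30.1 in BAT. Its log2 fold change was 1.73 ± 0.09 in iWAT against BAT (edgeR, adjusted p = 1.56e-09). The secreted phospholipase gene Pla2g5 was at 1.62 to 3.86 RPKM in iWAT and 0.214 to 0.616 in eWAT, while a single read was counted over the 6 BAT samples. The phospholipase genes Pla2g6 (6.38, 7.46 and 2.96 RPKM in iWAT, eWAT and BAT) and Pla2g15 (11.4, 17.0 and 5.89) were higher in both white depots as well.

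The inducible cyclooxygenase gene Ptgs2 was higher in both white depots. It was at 0.0997 to 1.81 RPKM in iWAT, 1.17 to 14.7 in eWAT and 0.00878 to 0.0461 in BAT (18 reads over the 6 BAT samples). Ptgs2 is itself an early gene, and the sum of early genes was higher in the digested white samples, as given above. The part of digestion in its level was not tested. Ptgs1, the constitutive form, exceeded BAT in eWAT (log2 fold change 0.90 ± 0.33, edgeR, adjusted p = 0.0201). In iWAT against BAT it was not called, at -0.54 ± 0.35 (edgeR, adjusted p = 0.184).

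Terminal synthases went in both directions, with 3 of 10 higher and 4 lower in iWAT than in BAT and 4 higher and 2 lower in eWAT than in BAT. These shares are close to those of all features, of which 34.0% were higher and 33.6% lower in iWAT, and 35.6% and 34.7% in eWAT. For prostaglandin E2, the ligand of the Ptger members, the inducible synthase gene Ptges was higher in white adipocytes (17.0 and 17.4 RPKM in iWAT and eWAT against 2.33 in BAT; log2 fold change 2.59 ± 0.32 for iWAT against BAT, edgeR, adjusted p = 6.26e-06). Ptges2 was higher in BAT (8.81 and 6.995 RPKM against 23.4; -1.68 ± 0.08, edgeR, adjusted p = 3.97e-10), and Ptges3 did not pass the test in any comparison (30.1, 30.8 and 28.3 RPKM).

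For prostaglandin F2alpha, the ligand of Ptgfr, the synthase gene 2810405K02Rik (Prxl2b) was at 34.6 to 62.9 RPKM in iWAT, 38.7 to 80.8 in eWAT and 2.45 to 5.41 in BAT. Its log2 fold change was 3.44 ± 0.20 in iWAT against BAT (edgeR, adjusted p = 2.6e-09) and 3.25 ± 0.22 in eWAT against BAT (edgeR, adjusted p = 1.78e-10). Of the other genes listed for this step, Cbr1, a carbonyl reductase, was at 28.4, 22.8 and 27.6 RPKM in iWAT, eWAT and BAT and was lower in both white depots on reads, though not by mean RPKM in iWAT (-0.22 ± 0.09, edgeR, adjusted p = 0.048, and -0.60 ± 0.11, edgeR, adjusted p = 7.87e-05). The aldose reductase gene Akr1b3 was higher in iWAT than in BAT (0.72 ± 0.11, edgeR, adjusted p = 7.49e-05), and its value in eWAT against BAT was 0.32 ± 0.14 on reads (edgeR, adjusted p = 0.057). Its mean RPKM was 1.66, 7.89 and 0.847 in iWAT, eWAT and BAT, on rows of other length in eWAT. Per length, the eWAT samples (6.26 to 10.9) all lay above the BAT samples (0.648 to 1.12). The thromboxane synthase gene Tbxas1 and the hematopoietic prostaglandin D synthase gene Hpgds were at 2.98 and 3.23 RPKM on average in eWAT, where mouse 15 had 12.2 and 15.2, and below 0.3 on average in the other depots. The lipocalin-type prostaglandin D synthase gene Ptgds was at 2.17 RPKM in BAT and 0.0107 in iWAT (3 reads over 6 samples), and from 0 to 5.21 in the eWAT samples.

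Inactivation and transport had 2 of 6 genes higher and 3 lower in iWAT than in BAT, and 3 higher and 3 lower in eWAT than in BAT, beside the shares of all features given above. Hpgd, which oxidises prostaglandins to inactive forms, was at 14.3, 25.8 and 1.39 RPKM in iWAT, eWAT and BAT (log2 fold change 3.08 ± 0.20 for iWAT against BAT, edgeR, adjusted p = 1.12e-08). The reductase gene Zadh2 was higher in BAT than in either white depot (12.7, 13.2 and 28.6 RPKM, with -1.45 ± 0.12 for iWAT against BAT, edgeR, adjusted p = 8.62e-08). So was Abcc4, a transporter that exports prostaglandins (0.733, 1.29 and 2.13 RPKM, with -1.80 ± 0.15, edgeR, adjusted p = 9.44e-08). The reductase gene Ptgr2 was higher in BAT than in iWAT (-1.04 ± 0.09, edgeR, adjusted p = 1.27e-07). Between eWAT and BAT its direction turned with the scale, since its reads gave -1.11 ± 0.11 and its mean RPKM was 35.3 in eWAT and 23.0 in BAT. Among the further genes listed for prostanoid binding, Ptgfrn, which encodes a partner protein of the receptor Ptgfr, was at 1.35, 4.14 and 0.785 RPKM. The nuclear receptor gene Pparg was at 104.3, 99.1 and 73.8 RPKM (0.23 ± 0.09 for iWAT against BAT, edgeR, adjusted p = 0.0382). Gpr44, the second prostaglandin D2 receptor, was below 1 RPKM on average in every depot and passed no test.

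**Figure D4:**
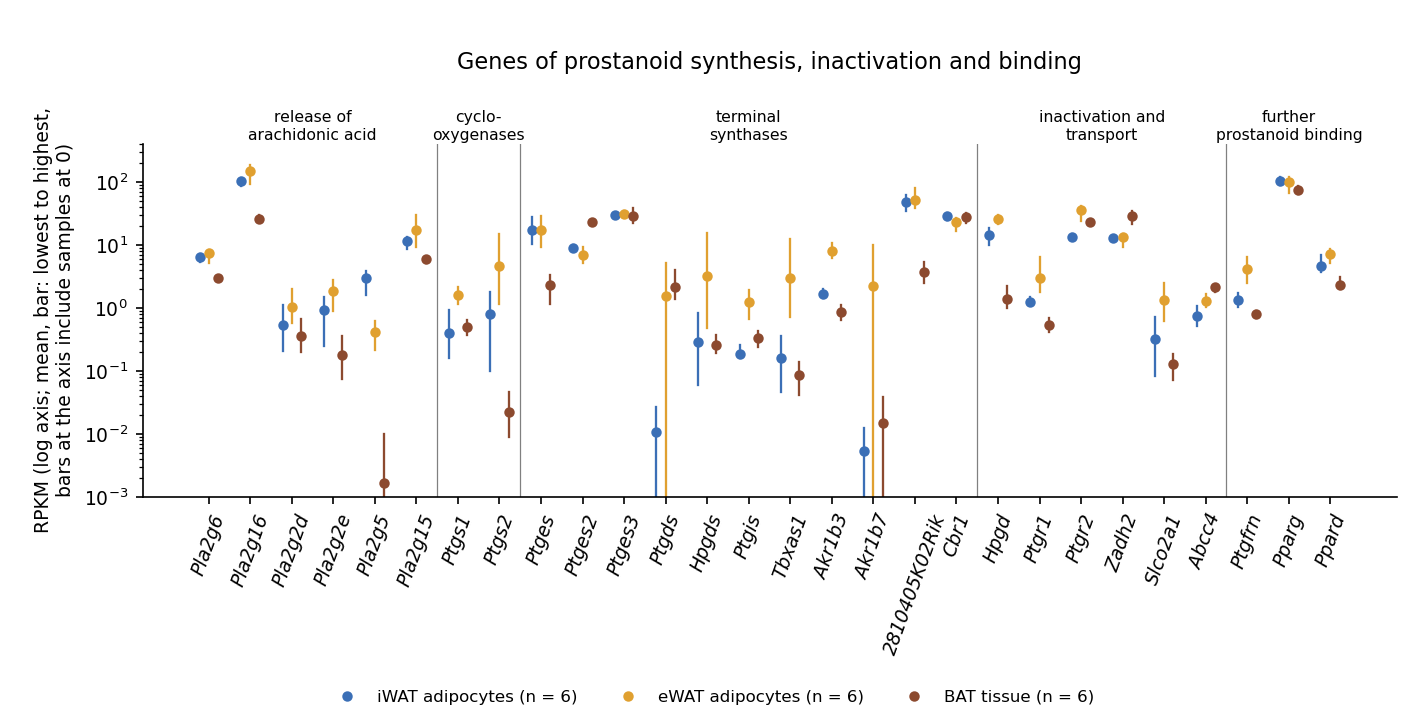
Mean RPKM (points, log axis) with the lowest and highest of 6 samples (bars) for the pathway genes with a mean of at least 1 RPKM in a depot, in iWAT, eWAT and BAT. Pla2g16, Ptges, 2810405K02Rik and Hpgd lie higher in both white depots than in BAT, Ptges2, Zadh2 and Abcc4 lie higher in BAT, and the long eWAT bars of Hpgds and Tbxas1 reach 15.2 and 12.2 through mouse 15.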

How the data were processed

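RNA was sequenced from 18 samples of male mice, 6 per depot. As the study's methods state, NEBNext Ultra RNA libraries were sequenced on a HiSeq instrument, mapped to mm9 and analysed with the Genomatix Genome Analyzer, and the submitters' processing notes name cutadapt 1.16 and HISAT2 2.1.0. The files deposited by the authors give read counts and RPKM per row, merged by gene in iWAT and BAT and by transcript in eWAT, and further normalised columns, whose definition is not given in the sources used here, were not used. The main test was edgeR 4.0.16 (quasi-likelihood, TMM, library size from the reads behind the RPKM, Benjamini-Hochberg, R 4.3.3), on 12 samples for iWAT against BAT (19733 merged rows) and on all 18 for the comparisons with eWAT (18383 symbols), where 6 or more samples had 10 or more reads. Intervals are 1.96 standard errors to each side. DESeq2 1.42.0 and limma 3.58.1 served as alternatives, beside other filters, scalings, eWAT rows and left-out samples. The test was checked on simulated counts.

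All 8 members are named. Pathway genes were eligible to be named where their mean RPKM reached 1 in a depot (Gpr44, below it, was added after its values were seen), and, by likeness, so were 3 genes for each member at that level in iWAT or BAT. Members and lists were chosen with earlier results of these data known. The number in each sample title was taken as that of the mouse, so that samples of a number come from 1 animal. The deviations of same-numbered samples correlated at -0.0387 to 0.126 for iWAT and BAT (4 pairs), -0.148 to 0.0546 for eWAT and BAT (4 pairs) and -0.322 to 0.149 for iWAT and eWAT (5 pairs). Promoter windows matched 7 of the 8 members. No sequence of 30 bases was shared between the coding transcripts of any of the 28 pairs of members.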

Additional observations from a re-analysis of the deposited data

Results flagged for a closer look

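Within groups of 6 samples, the highest or lowest value was set against the rest (by the size of its gap to the nearest sample, relative to the range) for 81 measures of the receptors and pathway genes. It stood apart in 12, where chance alone would give about 4.05 for normally distributed measures. The measures share samples, and most of the 12 came from the eWAT sample of mouse 15, so an excess over chance was not tested.

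Of the receptors, Ptger2 in iWAT stood apart through mouse 14 (0.263 RPKM, others 0.0440 to 0.107). In eWAT, Ptgir was highest in mouse 15 (2.61, others 0.487 to 1.22) and Ptgfr lowest in the same sample (0.525, others 1.47 to 1.97). In BAT, Ptger4 was highest in mouse 7 (1.95, others 0.428 to 0.984).

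The eWAT sample of mouse 15 also stood apart in 6 pathway genes. It was highest for Pla2g2d (2.01 RPKM, others 0.571 to 1.05), Ptgs2 (14.7, others 1.17 to 4.08), Hpgds (15.2, others 0.487 to 1.13), Tbxas1 (12.2, others 0.713 to 2.12) and Ptgr1 (6.41, others 1.81 to 2.91), and lowest for Zadh2 (9.38, others 12.95 to 14.8). In that sample the summed markers of macrophages were at 522.6 RPKM (others 34.3 to 99.6), of platelets at 51.0 (4.17 to 13.3), of the epididymis at 69.9 (0.0423 to 76.4) and of adipocytes at 2861 (4344 to 6332), and their part in these values was not tested. Akr1b7 in eWAT was highest in mouse 13 (10.1, others up to 3.15), and Ppard in BAT in mouse 11 (3.05, others 2.02 to 2.38).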

How the results depend on the processing

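There were 510 alternative values of the members' log2 fold changes. Of these, 444 kept their side of the threshold, 55 lost the call, 9 gained it and 2 turned the direction of a called difference. Both turned values were Ptger3 in eWAT against BAT, which was -0.60 on reads and 0.00 with limma on log2(RPKM + 0.1) and 0.01 on log2(RPKM + 1). A change of sign in a difference that was not called was not counted as turned. Examples are Ptger2 in eWAT against BAT (0.33, and -0.27 with the replicate block) and Ptgir in iWAT against BAT (-0.14, and 0.12 without TMM). The calls of Ptger1 and Ptgfr against BAT and of Ptgfr between the white depots held under every alternative that tested them.

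The members called between iWAT and BAT fell from 4 to 2 where a mean RPKM of at least 1 was asked for, and were 3 in the fit over symbols with all 18 samples and 3 to 4 with single samples left out. Between eWAT and BAT they fell from 5 to 3 with the replicate block and to 1 on shared rows (the same row in all files, on the strand of the main row), where Ptgir was the only member tested, and were 4 to 5 with single samples left out. Between iWAT and eWAT they fell from 5 to 1 with the replicate block, to 3 with the RPKM minimum, with the eWAT transcript of highest RPKM, without the eWAT samples of mice 14 and 15, and without eWAT of mouse 15, BAT of mouse 12 and iWAT of mouse 14 together (these exclusions were chosen after seeing the data), and to 1 on shared rows; leaving out single samples gave 2 to 5. The block changed no other call of a member than those given beside the results.

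Over all genes, the calls between iWAT and eWAT went from 4714 to 9625 and 9479 with limma (pseudocounts 0.1 and 1), 10523 with the transcript of highest RPKM, 9644 with the length offset and 676 on shared rows, and those between eWAT and BAT from 12916 to 3614 on shared rows, where fewer rows were tested. Single samples left out gave 3883 to 5156 and 12087 to 13029, and 12307 to 13291 for iWAT against BAT (13337). Without TMM the median log2 fold change of all genes moved from 0.01 to 0.27 in iWAT against BAT and from 0.03 to 0.36 in eWAT against BAT, and the share of calls that were higher in the white depot from 50.3 to 65.8% and from 50.6 to 66.3%. Ptger3 in iWAT against BAT was then at 0.39 (edgeR, adjusted p = 0.0482), a shift close to that of all genes.

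The members at a mean RPKM of at least 1 were 3 in place of 5 in eWAT at a minimum of 2 or where every sample had to pass, and 4 in place of 2 in BAT at a minimum of 0.5. The Gs share in BAT moved from 4.09 to 9.82% without Ptger1. The depth limits Ptgdr, Tbxa2r and Ptger2, and Ptgfr in BAT rests on 5 to 23 reads a sample.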
